A study of Xenopus laevis with 7 samples.

Results

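The pou5f3 copies of the African clawed frog Xenopus laevis were taken as every transcript of the expression table whose identifier begins with pou5f or whose human protein match is POU5F1, POU5F1B or POU5F2. No identifier begins with pou5f, and 4 of 44421 transcripts are matched to POU5F1. They are Xetrov90019679m.L, Xetrov90019679m.S, Xelaev18038233m and Xelaev18041475m. The suffixes L and S mark the long and short chromosome sets of this allotetraploid frog, so Xetrov90019679m.L and Xetrov90019679m.S are the homeologs of a single gene. Both are matched to the human protein NP_002692. The 2 Xelaev transcripts share another isoform as their match, NP_001272916, and carry no suffix that would tell whether they are homeologs.

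Polyadenylated RNA was sequenced from wild type embryos at stage 10.5, the early gastrula, from frogs of a commercial supplier (Nasco). The 7 libraries comprise whole embryos (1), dorsal lips (3) and ventral lips (3), the lips being cut from the embryo in Barth's solution. The dorsal lip is the organizer side of the blastopore and the ventral lip lies opposite. The titles number the lips 1 to 3, and the file headers call these numbers experiments, place the whole embryo library in experiment 1, and state that a single sequencing lane held the lips of experiments 2 and 3. Whether the experiments used different clutches is not in the labels, so every p-value reflects the spread of these libraries alone, and that spread may be technical.

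Pou5f3 proteins are the frog relatives of mammalian OCT4, POU homeodomain transcription factors that bind DNA together with Sox partners and keep early embryonic cells uncommitted. Frogs carry tandem pou5f3 genes with different timing. In Xenopus, pou5f3.3 is made mainly in the oocyte, pou5f3.2 is both maternal and zygotic, and pou5f3.1 is switched on in the embryo. In the NCBI RefSeq gene table of another assembly (Xenopus laevis v10.1), 6 pou5f3 genes lie as an unbroken run of 3 neighbours on 8L and another on 8S. None of the deposited identifiers could be matched to a pou5f3 symbol of that table, so which transcript is pou5f3.1, pou5f3.2 or pou5f3.3 is not given in the sources used here. No transcript is called maternal or zygotic below on that account. Whether the 4 transcripts cover all 6 genes is likewise not known, so ranks and sums below hold for these 4 alone. Per library, 26438015 to 37998987 reads were recovered from the values, and the tissue markers followed the labels. All 15 dorsal lip marker transcripts and none of 12 ventral ones were higher in dorsal than in ventral lips in experiment 1, and the same counts held for the mean of experiments 2 and 3.

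The 4 transcripts differed in level by more than an order of magnitude. Values are RPKM, reads scaled to transcript length and to the mapped reads of the library, so that levels can be compared between transcripts. Xetrov90019679m.L was the most abundant, at 882.8 RPKM in whole embryos, at 1062, 968.8 and 1052 RPKM in the dorsal lips of experiments 1, 2 and 3, and at 1036, 878.6 and 962.2 RPKM in the ventral lips. By its mean over the 7 libraries it ranked 13 among 35326 transcripts above 0. Its homeolog Xetrov90019679m.S stood at 356.2 RPKM in whole embryos, 427.2, 391.0 and 410.5 RPKM in dorsal lips and 473.8, 412.5 and 450.7 RPKM in ventral lips (rank 97). For both homeologs all 7 values lay close together and the dorsal and ventral values overlapped.

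Xelaev18038233m stood at 194.0 RPKM in whole embryos, at 231.9, 128.1 and 152.2 RPKM in dorsal lips and at 236.8, 87.4 and 109.6 RPKM in ventral lips (rank 338). Xelaev18041475m was the least abundant, at 49.29 RPKM in whole embryos, 56.81, 39.90 and 46.26 RPKM in dorsal lips and 60.68, 25.49 and 30.74 RPKM in ventral lips (rank 2126). In both Xelaev transcripts the experiment 1 lips held the highest values and the ventral lips of experiments 2 and 3 the lowest. Between the highest and lowest lip library, Xelaev18038233m spanned 2.71-fold and Xelaev18041475m 2.38-fold, against 1.21-fold for each Xetrov homeolog. The coefficient of variation over the 6 lip libraries was 40.03% and 32.3% for the Xelaev transcripts and 7.09% and 7.04% for Xetrov90019679m.L and Xetrov90019679m.S. The smallest number of reads behind any of these values was 2367, for Xelaev18041475m in ventral lip 2, where the 95% exact Poisson interval ran from 24.5 to 26.5 RPKM. Such intervals cover counting error only.

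**Figure D1:**
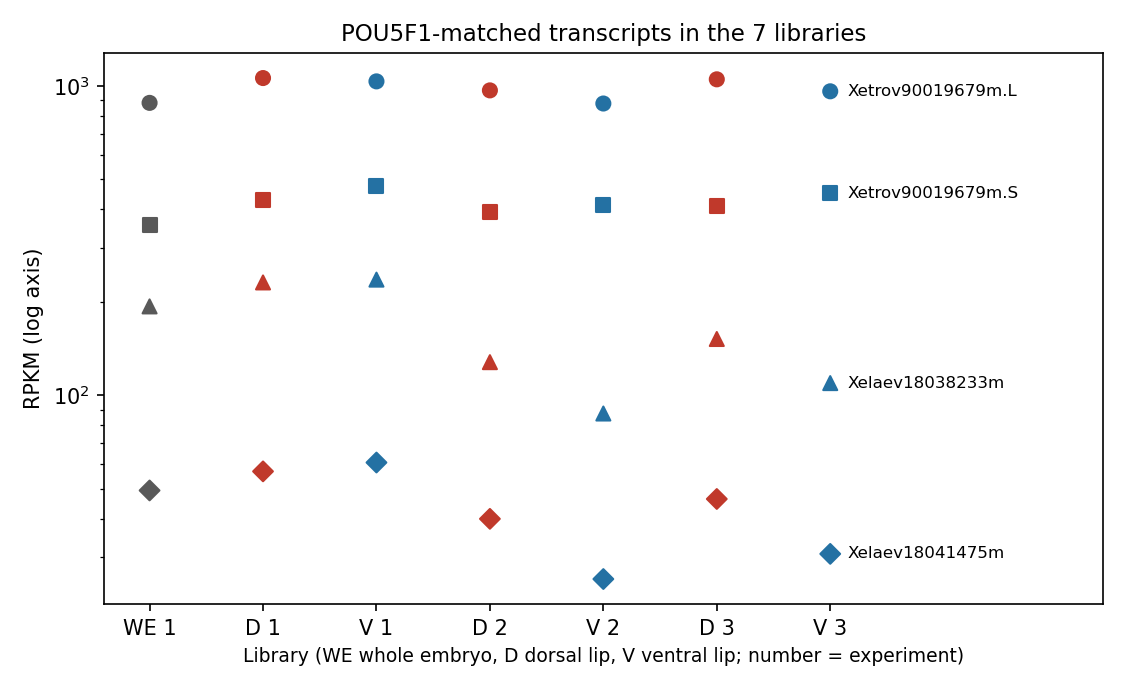
RPKM (log axis) of the 4 transcripts matched to POU5F1 in each library, with whole embryo in grey, dorsal lips in red and ventral lips in blue, 1 point per library. The order of the 4 transcripts is the same in every library, and the 2 Xelaev transcripts are lowest in ventral lips 2 and 3.

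The order was the same in all 7 libraries. Averaged over the 6 lip libraries, Xetrov90019679m.L stood 2.32-fold above Xetrov90019679m.S (log2 ratio 1.22 ± 0.12, SD, n = 6 lip libraries), which stood 2.89-fold above Xelaev18038233m (1.53 ± 0.54), which stood 3.54-fold above Xelaev18041475m (1.82 ± 0.14). For each of the 6 pairs of transcripts the exact two-sided sign-flip permutation test over lip libraries gave p = 0.03125 (0.03125 after adjustment over the 6 pairs), the smallest p that 6 libraries allow. This test takes the lips as independent, although both lips of an experiment deviated together, as did lips of experiments 2 and 3 across numbers. With the lips averaged within each of the 3 experiments, a test added after seeing the data, the exact permutation p was 0.25 for each pair, the smallest that 3 experiments allow. That test takes the 3 experiments as independent, which the likeness of experiments 2 and 3 leaves in doubt. In the whole embryo library the log2 ratios of these 3 neighbouring pairs were 1.31, 0.88 and 1.97. How reads that fit several copies were counted is not given in the sources used here, so levels of near-identical copies are uncertain to that degree. Together the 4 transcripts summed to 1482 RPKM in whole embryos, to between 1528 and 1778 RPKM in dorsal lips and to between 1404 and 1808 RPKM in ventral lips. Of this sum the Xetrov homeologs made up 83.6% in whole embryos and 83.76% and 83.55% in the dorsal and ventral lip of experiment 1. In experiments 2 and 3 they made up 89% and 88.05% in the dorsal lips and 91.96% and 90.96% in the ventral lips.

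Whether pou5f3 RNA differs between the organizer side and its opposite was asked by comparing dorsal with ventral lips. None of the 4 transcripts passed, and none had groups that did not overlap, which 6.90% of all tested transcripts had. The log2 fold changes, dorsal minus ventral on the log2(RPKM + 0.5) scale, were 0.10 for Xetrov90019679m.L (95% interval -0.13 to 0.33), -0.12 for Xetrov90019679m.S (-0.33 to 0.09), 0.33 for Xelaev18038233m (-0.70 to 1.36) and 0.37 for Xelaev18041475m (-0.46 to 1.21). The limma adjusted p was 1 for each, with 0 of 4 at an unadjusted p under 0.05, while 0.327% of 16514 transcripts were called. Of the 16514, 515 had an unadjusted limma p under 0.05. With the experiment number as a block 4.71% were called and again none of the 4, with adjusted p of 0.123, 0.0812, 0.157 and 0.195 in the same order. An unadjusted p under 0.05 in this blocked limma fit was seen in 3 of 4, and in 4335 of all 16514 transcripts. The intervals then narrowed to 0.02 to 0.18 for Xetrov90019679m.L, -0.19 to -0.05 for Xetrov90019679m.S, 0.04 to 0.62 for Xelaev18038233m and -0.01 to 0.76 for Xelaev18041475m. In bulk tissue, fewer cells of a type and less RNA per cell cannot be told apart.

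The experiments differed in this comparison. For Xelaev18041475m the dorsal to ventral ratio of RPKM was 0.936 in experiment 1 and 1.57 and 1.51 in experiments 2 and 3. For Xelaev18038233m it was 0.979, 1.47 and 1.39. The dorsal value thus lay slightly under the ventral one in experiment 1 and clearly over it in the other two. Within experiments 2 and 3 alone the log2 fold change of Xelaev18041475m was 0.61 (SE 0.11, limma adjusted p = 0.0308) and that of Xelaev18038233m was 0.51 (SE 0.13, adjusted p = 0.0984), so that 1 of 4 transcripts passed where 4.23% of all were called. With the experiment as a block in these 4 libraries, an analysis added after seeing the data, 3 of 4 passed against 9.25% of all transcripts. They were Xelaev18041475m (limma adjusted p = 0.00126), Xelaev18038233m (adjusted p = 0.000963) and Xetrov90019679m.L (log2 fold change 0.13, adjusted p = 0.0317). The blocked fit of 4 libraries leaves only 1 residual degree of freedom per transcript. Its p-values thus rest mostly on the variance that limma shares over all transcripts. That the lips of these experiments pair by number is not shown by the correlations between libraries. In the authors' deposited table, whose adjusted p rests on the same 4 libraries, Xelaev18041475m has 0.0195, Xelaev18038233m 0.162 and both Xetrov homeologs 1.

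**Figure D2:**
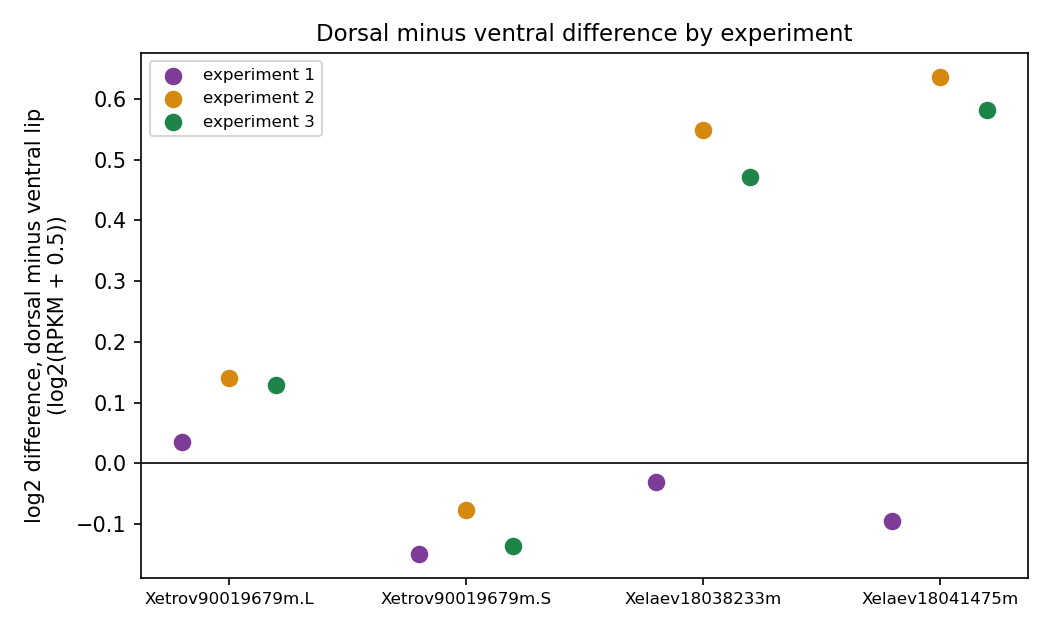
Difference between dorsal and ventral lip in log2(RPKM + 0.5) for each of the 4 transcripts, 1 point per experiment. The Xelaev transcripts lie just below 0 in experiment 1 and between 0.47 and 0.64 in experiments 2 and 3, while Xetrov90019679m.L is above and Xetrov90019679m.S below 0 in all 3.

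The Xetrov homeologs showed smaller values with opposite signs. Xetrov90019679m.L was higher in the dorsal lip of all 3 experiments, at ratios of 1.03, 1.103 and 1.09, and Xetrov90019679m.S was higher in the ventral lip of all 3, at dorsal to ventral ratios of 0.902, 0.948 and 0.911. A direction shared by all 3 experiments was seen in 2 of 4 transcripts and in 49.9% of all tested transcripts. The ratio of the L to the S copy within a library was 2.49, 2.48 and 2.56 in dorsal lips of experiments 1, 2 and 3 and 2.19, 2.13 and 2.14 in ventral lips. Dorsal and ventral ratios did not overlap, which was so for 7.06% of 3301 homeolog pairs. The whole embryo ratio of 2.48 lay within the range of the dorsal ratios and above all ventral ones.

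The test of the difference between the homeologs' dorsal to ventral changes gave 0.22 on the log2 scale (SE 0.034, 95% interval 0.14 to 0.31). Over all 3301 pairs the limma adjusted p was 0.121 without the block, where 0 pairs passed and 111 had an unadjusted p under 0.05. With the block it was 0.00581 (SE 0.024), and 4.03% of pairs were called. The exact two-sided permutation test over the 6 lip libraries of this pair alone gave p = 0.1, the smallest that 3 against 3 allows. In size, 15.3% of pairs had a larger difference than this one. Their difference in level was likewise moderate, since 36.3% of pairs had a larger L to S ratio in either direction. For Xelaev18038233m over Xelaev18041475m the ratio was 4.08, 3.21 and 3.29 in dorsal and 3.902, 3.43 and 3.57 in ventral lips, and the groups overlapped. Added as a pair of its own, its difference in dorsal to ventral change was -0.04 (95% interval -0.34 to 0.25, limma adjusted p = 1).

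**Figure D3:**
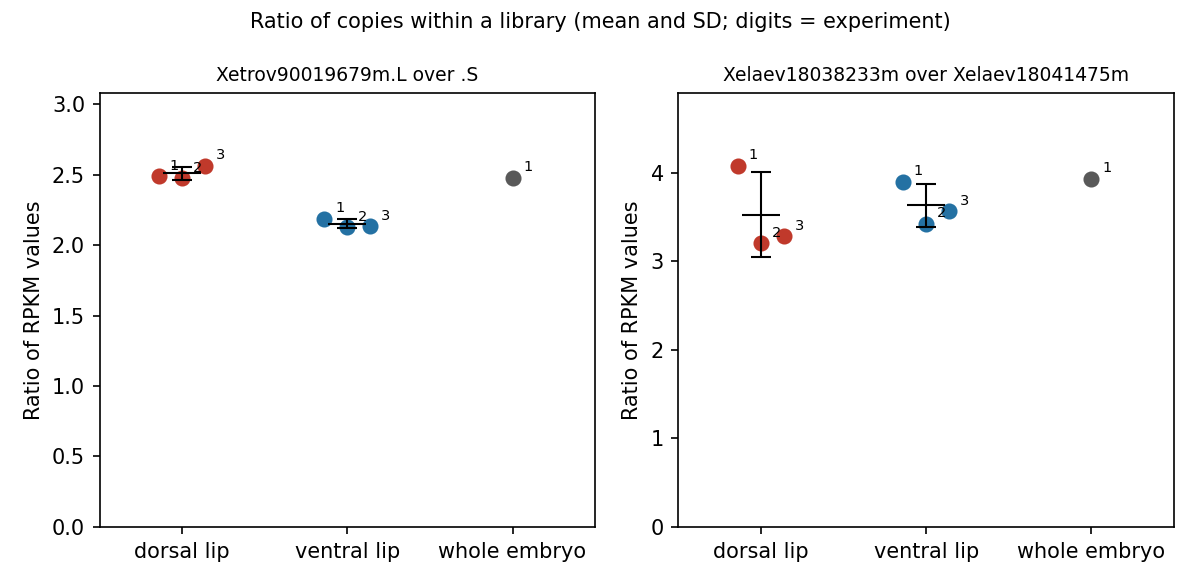
Ratio of RPKM values of 2 copies within each library, 1 point per library with its experiment number, and the mean with SD (n = 3) for each lip. For the Xetrov homeologs the dorsal ratios (2.48 to 2.56) lie above the ventral ratios (2.13 to 2.19), and for the Xelaev transcripts the lips overlap.

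Since pou5f3 genes differ in whether their RNA is stored in the egg or made by the embryo, the level in each experiment was set beside lists of maternal and of zygotic genes. These values have 1 library per side in experiment 1 and no test. In ventral lips, Xelaev18038233m in experiments 2 and 3 averaged 41.6% of its experiment 1 level and Xelaev18041475m 46.3%. In dorsal lips the figures were 60.4% and 75.8%. A level more than 2 times lower than in experiment 1 was thus reached by 2 of 4 transcripts in ventral lips, where 5.60% of all tested transcripts had one, and by 0 of 4 in dorsal lips, against 4.66%. Xetrov90019679m.L averaged 88.8% in ventral and 95.1% in dorsal lips, and Xetrov90019679m.S 91.1% and 93.8%. The log2 differences in ventral lips, -1.27 and -1.10 for the Xelaev transcripts, were more negative than all but 3.80% and 4.83% of tested transcripts. The values for the Xetrov homeologs, -0.17 and -0.14, lay nearer to the median of 0.18 over all of them.

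Of 46 tested transcripts of maternal genes, such as those of germ plasm and oocyte factors, 4 were lower in the ventral lips of experiments 2 and 3 than in that of experiment 1, and the list's median log2 difference was 0.83 in ventral and 0.78 in dorsal lips. Of 37 tested transcripts of zygotic mesoderm and posterior genes, 35 were lower in ventral and 22 in dorsal lips, with medians of -1.19 and -0.25. Over all tested transcripts the median was 0.18 in ventral and 0.18 in dorsal lips. The share of all tested transcripts that were lower was not counted, so such counts lack it here and below. Of the 10 vegetal endoderm marker transcripts, 8 were lower in ventral and 7 in dorsal lips, with medians of -1.75 and -0.44. Both sox17a copies were higher in the ventral lips of experiments 2 and 3, by 0.26 each. In ventral lips the Xelaev transcripts had negative values, like these 2 medians, and the Xetrov homeologs lay between the maternal and zygotic medians. In dorsal lips Xelaev18038233m (-0.73) and Xelaev18041475m (-0.40) lay below the zygotic median. Negative ventral medians were not particular to these lists. Of the lists described below, they were -0.50 for animal ectoderm, -0.28 for ectoderm, -0.47 for Nodal, VegT and Wnt targets and -0.11 for pluripotency partners. The other POU genes (0.67) and germ plasm markers (0.75) had positive ones. Most lip markers were lower in these ventral lips too. They were 11 of 12 ventral lip markers (median -0.733) and 12 of 15 dorsal lip markers (median -0.603). Of the 12 ventral lip markers, 6 are also in the zygotic list, so these 2 lists are not independent. The values are differences between experiments, and whether any of the 4 transcripts is maternal or zygotic was not tested. The zygotic and vegetal endoderm lists also differed between experiments in the comparison of the lips. Among the zygotic mesoderm and posterior transcripts 6 of 37 were higher in the dorsal lip in experiment 1 and 23 of 37 in experiments 2 and 3, with medians of -1.57 and 0.45. The same counts over all tested transcripts were not made. Vegetal endoderm markers summed to 321 to 415 RPKM in dorsal lips, to 405 RPKM in the ventral lip of experiment 1 and to 234 and 257 RPKM in those of experiments 2 and 3, none of the 10 being at 0 in any lip. Within these ventral sums mixer.L alone held 161.5 RPKM in experiment 1 and 46.2 and 56.5 RPKM in experiments 2 and 3. Their part in the pou5f3 values was not tested.

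**Figure D4:**
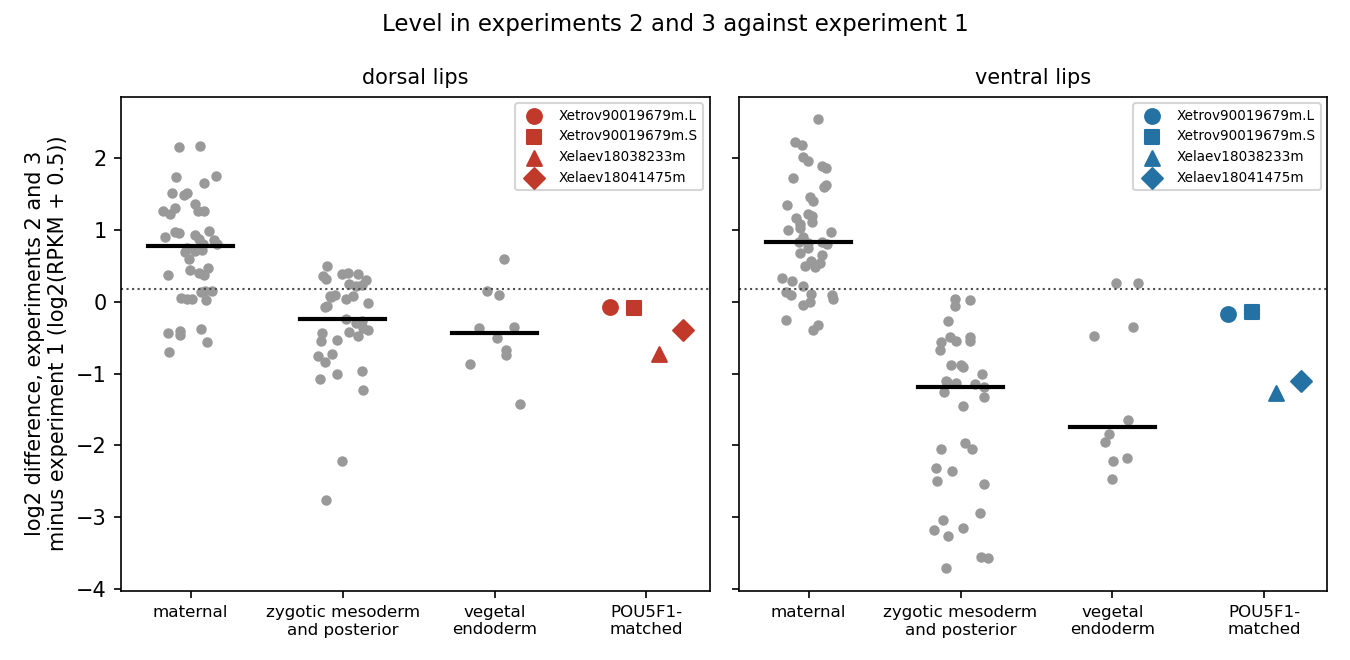
Mean of experiments 2 and 3 minus experiment 1 in log2(RPKM + 0.5), for dorsal (left) and ventral (right) lips. Grey points are tested transcripts of the maternal, zygotic and vegetal endoderm lists with black lines at their medians, coloured points the 4 POU5F1-matched transcripts, and the dotted line the median of all tested transcripts. In ventral lips the 2 Xelaev transcripts lie near the zygotic median of -1.19 and the 2 Xetrov homeologs near 0. In dorsal lips the Xelaev transcripts lie at -0.73 and -0.40, below the zygotic median of -0.25.

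Against the whole embryo, a comparison within experiment 1 that has no replicate, all 4 transcripts had higher RPKM values in both lips. The dorsal lip stood at 1.203-fold for Xetrov90019679m.L, 1.199-fold for Xetrov90019679m.S, 1.195-fold for Xelaev18038233m and 1.153-fold for Xelaev18041475m. The ventral lip stood at 1.17-fold for Xetrov90019679m.L, 1.33-fold for Xetrov90019679m.S, 1.22-fold for Xelaev18038233m and 1.23-fold for Xelaev18041475m. Over all tested transcripts the median log2 difference from the whole embryo was -0.06 in the dorsal and -0.02 in the ventral lip. The tissue make-up also differed. Vegetal endoderm markers summed to 757.5 RPKM in whole embryos and to 398 and 404.5 RPKM in the dorsal and ventral lip. Germ plasm markers summed to 56.6, 5.47 and 6.11 RPKM in the same order. Animal ectoderm markers went the other way, at 408.9, 581 and 616 RPKM. Their part in the pou5f3 values was not tested. None of the 4 is in the authors' deposited list of transcripts induced by surgery in both lips, nor in their lists and signatures of dorsal and ventral transcripts.

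The Xelaev transcripts resembled each other over the 7 libraries (Pearson r of log2 values 0.980), and the Xetrov homeologs less so (r = 0.559). With Xelaev18038233m and Xelaev18041475m, r was 0.561 and 0.634 for Xetrov90019679m.L and 0.094 and 0.069 for Xetrov90019679m.S. All such r share libraries and are descriptions. The 3 named transcripts closest to Xelaev18038233m among 15204 compared were those matched to SMAD4, the common mediator of BMP and Nodal signals (Xelaev18008450m, r = 0.994), to MST1 (Xelaev18023809m, 0.992) and to DAPK2 (Xelaev18042763m, 0.990). Closest to Xelaev18041475m were grpel2.L, a mitochondrial import co-chaperone (0.992), a transcript matched to HES7, a Notch pathway repressor (Xelaev18019216m, 0.991), and marcksl1.S (0.990). The HES7 match stood at 84.7 and 93.8 RPKM in the lips of experiment 1, at 41.4 and 53.3 RPKM in the other dorsal lips and at 12.9 and 26.3 RPKM in the other ventral lips. Closest to Xetrov90019679m.L were the splicing factor genes prpf38a.L (0.9747) and usp39.L (0.974) and the RBL1 match Xelaev18046631m (0.973). Closest to Xetrov90019679m.S were endod1.S (0.973), the BCS1L match Xelaev18044514m (0.966) and pemt.L (0.961).

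Among other POU genes 5 of 23 transcripts reached a mean of 1 RPKM over the lips, and the POU5F1-matched transcripts exceeded them all. The highest was a transcript of POU2F1, the widely expressed octamer factor (Xelaev18011327m), at 4.65 to 13.6 RPKM over the 7 libraries. It stood at 5.53 RPKM in whole embryos, 4.65, 10.6 and 13.2 RPKM in dorsal lips and 6.85, 13.6 and 11.6 RPKM in ventral lips, highest in experiments 2 and 3, where the Xelaev pou5f3 transcripts were lowest. Higher values there were not particular to it. The median log2 difference from experiment 1 was 0.81 in dorsal and 0.67 in ventral lips over the 5. It was 0.78 and 0.83 over the maternal list, which holds this transcript. None of the 5 passed limma, against 0.327% of all tested transcripts. With the block 1 of the 5 was higher in dorsal lips, against 4.71% of all transcripts called. It was the neural gene pou3f2.S (log2 fold change 0.57, limma blocked adjusted p = 0.0302), at 1.40 to 4.66 RPKM over the 7 libraries. Its homeolog pou3f2.L had a log2 fold change of 0.005 (limma blocked adjusted p = 0.973). The median log2 fold change of the 5 was 0.01, against -0.05 over all tested transcripts.

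Of 41 tested transcripts of pluripotency network partners, 2 passed as higher on the dorsal side and 4 on the ventral side, and 7 and 11 with the block. Of all tested transcripts, 0.327% were called without and 4.71% with the block. The median log2 fold change of the list was -0.06, against -0.05 over all. Of the 41, 4 are also ventral lip markers. Of these, 1 is among the 6 that passed without the block, and all 4 are among those that passed with it. Geminin, a partner that restrains commitment (gmnn.S), was the highest, with dorsal lips at 527 ± 41.7 RPKM and ventral lips at 498 ± 62.0 RPKM (SD, n = 3 each, limma adjusted p = 1). Those named here as called, with or without the block, lay far below Xetrov90019679m.L, the most abundant of the 4 POU5F1-matched transcripts. In ventral lips, however, the 2 VENTX matches given here exceeded the means of Xelaev18038233m (145 RPKM) and Xelaev18041475m (39.0 RPKM). The forkhead repressor foxd3.S had 10.2 ± 1.095 RPKM dorsally and 0.607 ± 0.054 RPKM ventrally (limma adjusted p = 0.00122). Its homeolog foxd3.L had 11.5 ± 3.25 and 0.564 ± 0.072 RPKM (limma adjusted p = 0.00711). A transcript matched to the zinc finger gene KLF2, Xelaev18001123m, stood at 6.16 ± 0.51 RPKM dorsally and 32.7 ± 0.95 RPKM ventrally (limma adjusted p = 0.00116). Another KLF2 match, Xelaev18025218m, stood at 16.2 ± 5.44 and 69.6 ± 17.3 RPKM. It passed only with the block (limma adjusted p = 0.107 without and 0.000359 with it). Of those matched to VENTX, whose frog relatives act downstream of BMP, Xelaev18034617m stood at 23.6 ± 5.85 and 191 ± 26.5 RPKM (limma adjusted p = 0.00711). Xelaev18034615m stood at 16.5 ± 9.26 and 164 ± 62.2 RPKM and passed only with the block (limma adjusted p = 0.0837 without and 0.00139 with it).

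Pou5f3 proteins are known in Xenopus to restrain targets of Nodal, VegT and maternal Wnt signals. Of 43 tested transcripts of such targets 11 passed as higher on the dorsal side and 0 on the ventral side, and 23 and 0 with the block, with a median log2 fold change of 1.54. For this list and those below, the shares called over all tested transcripts were 0.327% without and 4.71% with the block, and the median -0.05. Of the 11, 7 are also among the dorsal lip markers, so the dorsal excess is partly set by the choice of the list. Among them mix1.L, a homeobox gene of mesoderm and endoderm, had the highest mean level, at 187, 355 and 328 RPKM in dorsal and 201, 184 and 204 RPKM in ventral lips (limma adjusted p = 1). The anterior endoderm gene cer1.L stood at 47.5, 12.0 and 11.9 RPKM in dorsal and 1.81, 0.017 and 0.096 RPKM in ventral lips. It passed only with the block (limma adjusted p = 0.191 without and 4.39e-05 with it). Its value in ventral lip 2 was under that of 1 read over 1 kb (0.032 RPKM). Over the whole list, 19 of 43 transcripts were lower in the dorsal lips of experiments 2 and 3 than in that of experiment 1 and 31 of 43 in the ventral lips, with median log2 differences of 0.09 and -0.47. Of 42 tested ectoderm transcripts, 3 passed as higher on the dorsal side and 1 on the ventral side, and 11 and 12 with the block, with a median of -0.01. Of the 42, 2 are also dorsal lip markers, and both are among the 3 that passed as higher on the dorsal side. The animal ectoderm markers, where pou5f3 RNA is also known to be made, summed to 581 to 910 RPKM in dorsal and 616 to 1116 RPKM in ventral lips. The sum was mostly that of 2 transcripts matched to SOX3 (Xelaev18042169m and Xelaev18038842m), which were lowest in experiment 1. Their dorsal to ventral log2 fold changes were 0.12 and -0.06, so the sums hide a ventral excess of other markers. The median of the 12 was -1.55, against -0.05 over all tested transcripts. Of the 12, 3 were higher in the dorsal lip in experiment 1 and 0 in experiments 2 and 3. As higher on the ventral side 1 passed without the block and 6 with it, and 0 on the dorsal side. By count, 8 of 12 markers were lower in the dorsal and 9 of 12 in the ventral lips of experiments 2 and 3 than in experiment 1, with median log2 differences of -0.42 and -0.50. Their part in the pou5f3 values was not tested.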

How the data were processed

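RPKM values per transcript were deposited by the authors for gene models of the JGI 9.1 genome, with human symbols from protein BLAST, per the file headers. TopHat2 2.09 and DESeq are named in the submitters' processing notes without a role; which program counted reads, and with what strand setting, is not stated there. The adjusted p-value, the ratio columns of the lip and injury lists, and the correlation score to chordin and bambi were deposited by the authors. In the lists, 14 further RPKM columns were not used.

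Whole reads and transcript lengths were recovered from the RPKM steps for 35324 of 35326 transcripts above 0 (tolerance 0.001 reads). Since the values are RPKM, limma 3.58.1 (R 4.3.3, moderated with a trend) was fitted two-sided to log2(RPKM + 0.5). It took the 16514 transcripts averaging 1 RPKM or more in the 6 lip libraries. P-values were adjusted by Benjamini-Hochberg, with 0.05 as threshold. The fit without the block was run on simulated data that held no experiment effect, unlike the data. That run therefore does not bear on the blocked fits, nor on the unblocked fit where experiments differ. The threshold kept all 4 members. Homeolog differences were fitted in the same way on log2 L minus log2 S. Dorsal and ventral libraries of the same number deviated together from their group means, with correlations of 0.926, 0.881 and 0.819. Across numbers, dorsal lip 2 with ventral lip 3 gave 0.839, and dorsal lip 3 with ventral lip 2 gave 0.748. These values set experiment 1 apart from experiments 2 and 3, but do not show that lips 2 and 3 pair by number. The numbers, called experiments in the file headers, were still taken as a block where it changes a call. The fits were also made with other pseudocounts, no filter, median centring, recovered reads (voom) and with libraries left out. Named genes are all members, the 3 closest patterns of each, and from each of 11 lists up to 6 called transcripts and the most abundant. Members and lists were chosen with earlier results of these data known. Lists were matched by frog symbol, or by human symbol where the identifier is a placeholder.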

Additional observations from a re-analysis of the deposited data

Results flagged for a closer look

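The dorsal to ventral difference of Xelaev18041475m and Xelaev18038233m had opposite signs in experiment 1 and in experiments 2 and 3. The mean log2 difference of experiments 2 and 3 exceeded that of experiment 1 by 0.703 for Xelaev18041475m and by 0.540 for Xelaev18038233m. The difference between experiments was not tested, since experiment 1 has 1 library per lip.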

How the results depend on the processing

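In every setting run, each of the 4 dorsal to ventral log2 fold changes kept its sign. All settings held lips of experiments 2 and 3, which limits what this shows. Experiment 1 alone was not a setting, and there the differences were -0.03 for Xelaev18038233m and -0.09 for Xelaev18041475m. Calls were gained in 3 settings: experiments 2 and 3 alone (0.61 for Xelaev18041475m), these with the replicate block (0.61, 0.51 for Xelaev18038233m and 0.13 for Xetrov90019679m.L), and voom on recovered reads with the block (-0.12 for Xetrov90019679m.S, limma adjusted p = 0.0419). The last 2 settings and the added Xelaev pair were chosen after seeing the data. Without single libraries the values ranged from 0.12 to 0.74 for Xelaev18041475m, 0.04 to 0.75 for Xelaev18038233m, 0.04 to 0.16 for Xetrov90019679m.L and -0.17 to -0.08 for Xetrov90019679m.S. The count of called transcripts, 54, became 777 with the replicate block, 698 in experiments 2 and 3, 1528 in these with the block, 1658 with voom and the block, and 21 to 139 without single libraries (139 without ventral lip 1, 21 and 25 without ventral lips 3 and 2, 24 and 27 without dorsal lips 3 and 2).

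The L to S difference of 0.22 in dorsal to ventral change passed with the replicate block (0.22, also with the Xelaev pair added) and in experiments 2 and 3 (0.24, limma adjusted p = 0.0019), and ranged from 0.21 to 0.23 without single libraries, where it did not pass. Called pairs numbered 0, but 133 with the block (also with the Xelaev pair added), 181 in experiments 2 and 3, 1 with a pseudocount of 0.1, 12 without the filter and 0 to 5 without single libraries, the 5 without ventral lip 1. Added to the 6 lip libraries on the log2(RPKM + 0.5) scale, the block changed no call among the 4 transcripts.

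With both lips of an experiment averaged, chosen after seeing the data, the log2 ratios between copies were as reported (1.22, 2.75, 4.57, 1.53, 3.35 and 1.82) and no pair could pass with 3 experiments. With 5 lip libraries the sign-flip test cannot go below 0.0625. The log2 ratios then ranged from 1.19 to 1.24 for Xetrov90019679m.L over Xetrov90019679m.S, 2.63 to 2.87 over Xelaev18038233m and 4.46 to 4.66 over Xelaev18041475m. They ranged from 1.39 to 1.66 and 3.22 to 3.44 for Xetrov90019679m.S over these, and from 1.78 to 1.85 between them. In the whole embryo 5 of the 6 lay over 1 SD away, at 2.18, 4.15, 0.88, 2.84 and 1.97 in the same order. Median centring moved lip over whole embryo log2 ratios to 0.36 and 0.27 (dorsal, ventral) for Xetrov90019679m.L, 0.36 and 0.45 for Xetrov90019679m.S, 0.35 and 0.33 for Xelaev18038233m and 0.30 (dorsal) for Xelaev18041475m.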

Other observations

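In the authors' deposited table of correlations over 26 samples, which include kinds not analysed here, Xelaev18038233m has a coefficient of 0.592 with bambi, a marker of the ventral side, and stands at place 670 of 40499 transcripts. In the authors' deposited table Xelaev18041475m has 0.445 with bambi (place 1931), and the Xetrov homeologs have -0.161 (Xetrov90019679m.L) and -0.217 (Xetrov90019679m.S). With the organizer gene chordin the authors' deposited table gives 0.223 and 0.212 for the Xetrov homeologs L and S, -0.103 for Xelaev18038233m and -0.026 for Xelaev18041475m. The Xelaev transcripts had dorsal to ventral ratios above 1 in the lips of experiments 2 and 3 and below 1 in experiment 1 (0.936 for Xelaev18041475m and 0.979 for Xelaev18038233m). The kind of coefficient is not given in the sources used here.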
